A study of Saccharomyces cerevisiae with 262 samples.

Results

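The genes described here are those for the proteins of the cytosolic ribosome of budding yeast, with their paralogs. Members were all probes annotated with a symbol of the form RPL or RPS plus a number and an optional A or B, together with RPP0, RPP1A, RPP1B, RPP2A and RPP2B. This rule found 135 of the 7085 probes on the array, 80 for proteins of the large subunit and 55 for proteins of the small subunit. They cover 77 proteins, of which 58 had both paralogous copies on the array, which accounts for 116 members, and they lie on 15 chromosomes. A further 18 members are the only copy of their protein in the reference annotation.

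The cytosolic ribosome has a small subunit that decodes the message and a large subunit that forms the peptide bond, each built from ribosomal RNA and many proteins. In Saccharomyces cerevisiae most of these proteins are encoded by a pair of nearly identical genes retained from an ancient genome duplication. Transcription of the whole gene family follows growth, through the Rap1, Fhl1, Ifh1 and Sfp1 factors and the nutrient-sensing TOR and protein kinase A pathways.

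The samples were haploid F1 segregants of a cross of BY4716 with RM11-1a, on 226 arrays with 1 dye-swapped pair each, RM11-1a with 12 pairs under 6 replicate numbers, and BY4716 with 6 pairs. RM11-1a (RM below) descends from a Californian vineyard isolate. BY4716 (BY below) is a laboratory strain isogenic to S288c. Every sample was total RNA hybridised against a pool of BY RNA on a dye-swapped pair of 2-colour arrays, 262 arrays in all, so a BY pair compares BY with itself. No growth condition is given in the labels, and the labels do not say that replicates were separate cultures. A p-value below therefore speaks only to the spread among the samples at hand, which may be technical.

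A value below is the log2 ratio of a strain over the BY pool, averaged over the 2 dyes, with the log base not stated in the sources used here and taken as 2 from the range of the values. It therefore compares strains for one gene and says nothing of the level of one gene against another. Its direction is not stated in the sources used here and is likely, since LEU2 and URA3, deleted in RM, averaged -5.93 and -4.87 in RM and 0.03 and 0.15 in BY. The near-identical copies may cross-hybridise on these spotted probes, which would draw the values of a pair together, and this was not tested.

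All 135 members had a value in every RM replicate, between 122 and 132 had one in a BY pair, and a segregant lacked a value for at most 30 (median 4). BY replicates 1 and 2, whose titles are spelled By1 and By2, stood apart from BY replicates 3 to 6. Over all probes the 2 sets correlated at between -0.45 and -0.28, against 0.75 within the first set and 0.82 to 0.90 within the second. On arrays of a single dye orientation the mean correlation between the sets was -0.10 with the strain in Cy5 and 0.02 with it in Cy3. Among the 12 RM pairs, the last repeats of RM numbers 1 to 4 correlated at 0.95 to 0.96 with each other and at 0.85 to 0.92 with the other 8 pairs, which correlated among themselves at 0.89 to 0.97. Main counts between RM and BY, and single values that change their call, are given with and without these pairs.

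The ribosomal protein genes moved as a block from sample to sample. With 1 dye-swapped pair per segregant, a difference between strains cannot be told apart from one between samples. The mean over all members ranged from -0.96 to 0.68 across the segregants, with a median of 0.11 and an SD of 0.284. The 6 RM replicates lay between -0.14 and 0.12 (mean 0.04 ± 0.0954 SD, n = 6). BY replicates 3 to 6 had means of 0.24, 0.15, 0.26 and 0.23, and BY replicates 1 and 2 had -0.16 and -0.17. Thus the parents overlapped each other, and 16 segregants lay below the lowest parental replicate, 30 above the highest and 67 between.

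**Figure D1:**
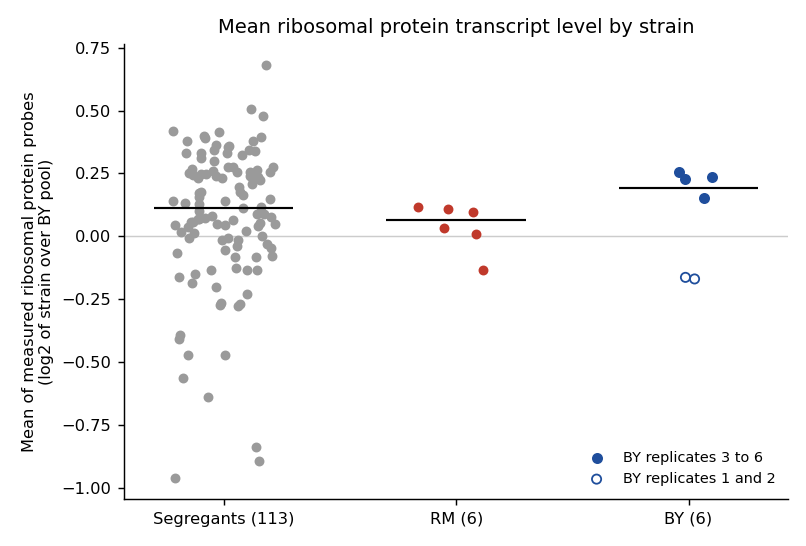
Mean of the measured ribosomal protein probes in each strain, as log2 of the strain over the BY pool. Each point is 1 segregant, 1 RM replicate number or 1 BY pair, and horizontal lines are group medians. The segregants span -0.96 to 0.68, the RM replicates -0.14 to 0.12, and BY replicates 1 and 2 (open circles) lie below BY replicates 3 to 6.

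The lowest segregants were 15-6-c at -0.96, 9-2-d at -0.89 and 9-7-d at -0.84. The highest were 7-8-d at 0.68, 18-2-d at 0.50 and 17-4-a at 0.48. The values from Cy5 and Cy3 arrays of the same segregant correlated at 0.849 for this mean (Spearman 0.794, 0.814 without the 2 most distant segregants), so most of the spread was seen on both arrays. Segregant titles begin with 1 of 26 numbers whose meaning the labels do not give, and the SD within a number was 0.268, against 0.284 in all. The number of probes measured on a segregant's arrays bore little relation to the mean (Pearson 0.187, Spearman 0.027).

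The subunits did not part from each other. The mean of the large-subunit members and that of the small-subunit members correlated at 0.995 over all segregants (Spearman 0.990, 0.994 without the 2 most distant). The large minus small difference was between -0.04 and 0.11 in segregants, between -0.01 and 0.01 in RM and between -0.01 and 0.01 in BY. These means share the same arrays, so the correlation is a description.

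Single members followed the block closely. Over 130 members with a value in at least 80% of segregants, the correlation of a member with the mean of the others had a median of 0.914 and ran from 0.589 for RPL22B to 0.965. Any 2 members correlated at a median of 0.820, against a median of 0.00 for any 2 probes on the array. The SD of a member over segregants had a median of 0.318 (range 0.218 to 0.392), against 0.245 over all 5523 probes measured as often. The half-difference between the 2 arrays of a segregant, a measure of array error, had a median SD of 0.136 for members.

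The most variable members over segregants were RPS22A (SD 0.392), RPL32 (0.386), RPL9A (0.386), RPS24B (0.382), RPS8A (0.364) and RPS9B (0.364), 4 of small-subunit and 2 of large-subunit proteins. RPS22A ran from -1.28 to 0.93 with a median of 0.13. The least variable were RPS16A (SD 0.218), RPL3 (0.234), RPS21A (0.247) and RPL15B (0.256). RPL3, whose protein lies close to the peptidyl transferase centre, ran from -0.68 to 0.93 with a median of 0.07. RPS16A and RPS21A were measured in 100 segregants each, and RPL3 in all.

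No member showed a distribution with 2 modes. A 2-component fit was called when it beat 1 component by over 10 BIC units, a penalised measure of fit and each component held at least 20% of the segregants. None of 130 members met this, against 152 of 5523 probes, or 2.75% of the array. A BIC difference over 10 was reached by 73 members, but with only 2.78% to 12.5% of segregants in the smaller component. When 10% in each component was allowed, 8 of 130 members were called, against 260 of 5523 probes, or 4.71%, a share not far off. They were RPL1B, RPL14B, RPL28, RPL33A, RPL42A, RPL42B, RPP1B and RPS14A, and in each of these the smaller component was the lower one. A small second component was not particular to these 8, as 73 members passed the BIC bound.

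The first comparison asks which of these genes differed between the parents. Against all 6 BY replicates, 9 of 129 members tested passed an adjusted p of 0.05 (limma with Benjamini-Hochberg adjustment over all probes tested), 2 higher and 7 lower in RM. Over the array 2162 of 3986 probes passed, or 54.2%, with 33.3% higher and 20.9% lower in RM, so the share among members was far under the background. The median RM minus BY difference was -0.06 over members and 0.03 over all probes, and over members it was -0.08 with arrays centred on their median and -0.19 after quantile normalization. A probe was tested where 80% or more of the segregants and 3 or more replicates of each parent were measured. Of the 6 members not tested, RPS28A had 2 BY values, and RPL10, RPL13B, RPL16B, RPL31A and RPL6A were measured in too few segregants.

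That count depends on which BY replicates are used. Against BY replicates 3 to 6 alone, 85 of 124 members were lower and 1, RPP2A, was higher, with a median difference of -0.19, while 67.4% of all probes passed, 36.2% higher and 31.2% lower. Against BY replicates 1 and 2 alone, 67 of 120 were higher and 0 lower, with a median of 0.22, while 35.7% of all probes were higher and 18.4% lower. The 2 BY sets themselves differed in 123 of the 131 members measured in both, which were higher in BY 3 to 6 with no overlap, and 0 were lower, with a median BY 3 to 6 minus BY 1 to 2 difference of 0.40. Over the array 38.8% of probes were higher in this way and 30.9% lower. With the sign of BY 1 and 2 turned, 1 member was higher and 80 were lower, against 37.5% and 29.4% of all probes.

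**Figure D2:**
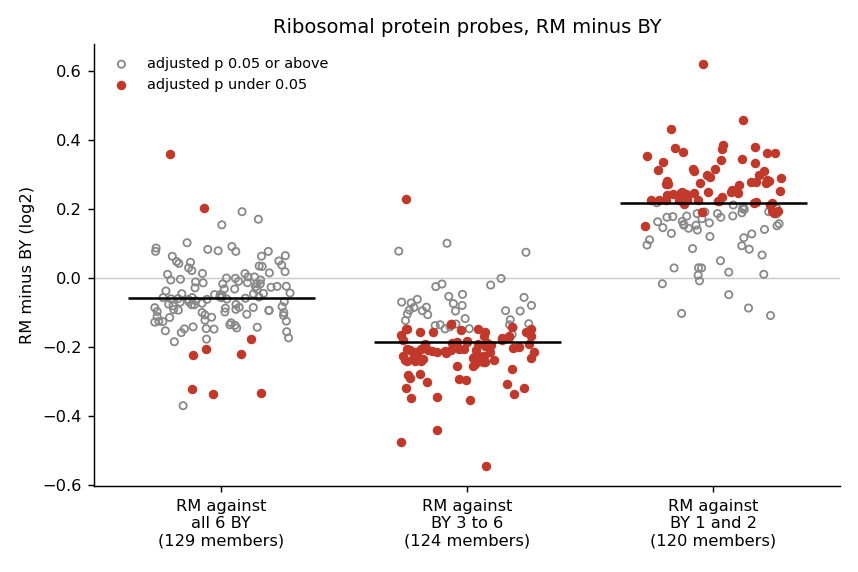
RM minus BY difference of every tested member, in log2 units, against all 6 BY replicates, BY replicates 3 to 6 and BY replicates 1 and 2. Red points passed the limma adjusted p of 0.05, open points did not, and lines are medians. The median lies at -0.06, -0.19 and 0.22 from left to right.

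Deviations of same-numbered samples of the 2 parents correlated at between 0.115 and 0.510, and the main test did not pair them. With the number as a block 18 members passed, 4 higher and 14 lower, against 53.8% of all probes, 32.9% higher and 21.0% lower. Without BY replicate 1 or BY replicate 2, 19 members passed in each case, against 1948 of 3398 and 1950 of 3442 probes. Without BY replicate 4 or RM replicate 4, 5 members passed, against 1828 of 3541 and 2035 of 3986 probes. With the first repeat of each RM number in place of the mean over repeats, the median difference was -0.0036 and 5 passed, RPP1A and RPP2A higher and RPL16A, RPL42A and RPS13 lower, against 49.7% of all probes, 30.6% higher and 19.1% lower. With that choice and BY replicates 3 to 6, 38 of 124 members were lower and 0 higher, against 58.6% of all probes, 25.2% lower and 33.3% higher.

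For the large subunit 2 of 75 members were higher and 4 lower, with a median of -0.05, and for the small subunit 0 of 54 were higher and 3 lower, with a median of -0.06, where 33.3% of all probes were higher and 20.9% lower. Against BY 3 to 6, 1 of 73 large-subunit members was higher and 51 were lower (median -0.18), and 0 of 51 small-subunit members were higher and 34 lower (median -0.19), with 36.2% of all probes higher and 31.2% lower. Of 17 members that are the only copy in the reference, 0 were higher and 2 lower, with a median of -0.13, and against BY 3 to 6 it was 0 and 13 of 16, with a median of -0.21. Of those with a measured paralog, 2 were higher and 5 lower, with a median of -0.05, and against BY 3 to 6 it was 1 and 72, with a median of -0.18. These are counts over members chosen by name, with no test of one group against another.

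Among the lower members, RPL16A, a large-subunit protein, had RM values from -0.43 to -0.16 with a median of -0.23, against BY values from -0.21 to 0.27 with a median of 0.19. All 6 RM values lay below BY replicates 3 to 6, while BY replicates 1 and 2 lay within the RM range. The difference was -0.33 (SE 0.0919, limma adjusted p = 0.00799), it was -0.47 against BY 3 to 6, and -0.05 with an adjusted p of 0.598 against BY 1 and 2. RPS13, a single-copy small-subunit protein, had RM values from -0.46 to -0.13 with a median of -0.25, against BY values from -0.20 to 0.23 with a median of 0.11. It behaved alike, with a difference of -0.32 (SE 0.0842, limma adjusted p = 0.00563), -0.44 against BY 3 to 6 and -0.09 (adjusted p = 0.372) against BY 1 and 2.

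RPL42A had RM values from -0.17 to 0.09 with a median of 0.03, against BY values from 0.18 to 0.42 with a median of 0.38. The groups did not overlap, but only BY replicates 3 to 6 had a value. Its difference was -0.34 (SE 0.0616, limma adjusted p = 7.99e-04). RPL10, whose protein joins the large subunit at a late step and was not tested, had 3 BY values, all from BY replicates 3 to 6. They ran from 0.00 to 0.03, above all 6 RM values, from -0.35 to -0.13. RPL10, RPL42A and RPP2A were the only members with no overlap between RM and BY. The gap in RPL10 and RPL42A rests on BY replicates 3 to 6, against which 85 of 124 members were lower in RM. RPL42B, the paralog of RPL42A, had all 6 BY values, from -0.18 to 0.41, which overlapped its RM values, from -0.13 to 0.12. Among the probes tested, which leave out RPL10, 40.3% did not overlap.

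RPS22A, a small-subunit protein, had RM values from -0.10 to 0.18 with a median of 0.10, against BY values from 0.12 to 0.33 with a median of 0.25. The ranges overlapped, and here BY replicates 1 and 2 were also high, at 0.22 and 0.12. The difference was -0.18 (SE 0.0515, limma adjusted p = 0.0104), and it was -0.12 with an adjusted p of 0.160 when the first repeat of each RM number was used. RPS22A passed in 21 of the 27 alternatives run.

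The other 3 lower members lay closer to the threshold. RPL25, whose protein sits at the exit of the peptide tunnel, differed by -0.22 (SE 0.0874, limma adjusted p = 0.0465), RPL36B by -0.22 (SE 0.0875, adjusted p = 0.0474) and RPS0B by -0.21 (SE 0.0737, adjusted p = 0.0319). Of the 9 called members, 5 (RPL16A, RPL42A, RPP2A, RPS13 and RPS22A) passed whichever single replicate was left out, and 4 (RPL25, RPL36B, RPP1A and RPS0B) did not. Against BY 1 and 2 alone RPL25 and RPL36B turned to 0.03 each. RPL25 lost its call without BY replicates 3, 4, 5 or 6 or RM replicates 1, 2, 3, 4 or 6, and RPL36B without BY replicates 3, 4, 5 or 6 or RM replicates 1, 2, 4, 5 or 6. RPS0B lost it without BY replicates 3, 4, 5 or 6 or RM replicates 1, 2 or 4.

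The acidic stalk of the large subunit, which recruits the translation factors that hydrolyse GTP, is formed by RPP0 as the anchor and by heterodimers of the P1 and P2 proteins. Against all BY replicates, 2 of its 5 members, RPP1A and RPP2A, were higher in RM and 0 were lower. Over the array 33.3% of probes were higher and 20.9% lower, so 2 of 5 does not set the stalk apart. Against BY 3 to 6 RPP2A was higher and both RPP0 and RPP2B were lower, where 36.2% of all probes were higher and 31.2% lower. RPP2A had RM values from 0.24 to 0.51 with a median of 0.39, against BY values from -0.29 to 0.24 with a median of 0.10. The groups did not overlap. The difference was 0.36 (SE 0.0866, limma adjusted p = 0.00332), and it was 0.23 (adjusted p = 0.00198) against BY 3 to 6 and 0.62 (adjusted p = 5.35e-05) against BY 1 and 2. With the first repeat of each RM number it was 0.24 (adjusted p = 0.0440), and with that choice and BY 3 to 6 it did not pass.

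RPP1A had RM values from 0.16 to 0.41 with a median of 0.31, against BY values from -0.21 to 0.27 with a median of 0.19. Its difference was 0.20 (SE 0.0818, limma adjusted p = 0.0490), and against BY 3 to 6 it was 0.08 (adjusted p = 0.137). The call was lost without BY replicates 1, 2 or 4 or without any 1 of RM replicates 2 to 6. RPP1B differed by 0.08 (adjusted p = 0.512) and RPP0 by -0.15 (adjusted p = 0.0867) against all BY replicates. Against BY 3 to 6 RPP1B differed by -0.05 (adjusted p = 0.512) and RPP0 by -0.21 (adjusted p = 0.0135), and over first repeats of RM RPP0 differed by -0.04 (adjusted p = 0.773).

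RPP2B gave values that depended on the RM repeat. Its RM means by number were -0.67, -0.79, -0.30, -0.37, 0.02 and -0.11, against BY values of -0.28, -0.24, 0.27, 0.11 and 0.15. Taken pair by pair, the last repeats of RM numbers 1 to 4 read -1.13, -1.61, -1.38 and -0.71, while the other 7 RM pairs with a value lay between -0.20 and 0.30. RPP2A was higher in those same 4 pairs, at 0.41, 0.46, 0.76 and 0.81, against 0.07 to 0.44 in the other 8. The RM minus BY difference of RPP2B was -0.37 (SE 0.153, limma adjusted p = 0.0588) over all repeats and -0.02 (adjusted p = 0.924) over first repeats. Against BY 3 to 6 it was -0.54 (adjusted p = 0.00997), and with the replicate number as a block it was -0.45 (adjusted p = 3.96e-04). It also passed without BY replicate 1 (-0.44), BY replicate 2 (-0.43), RM replicate 5 (-0.45) or RM replicate 6 (-0.42).

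**Figure D3:**
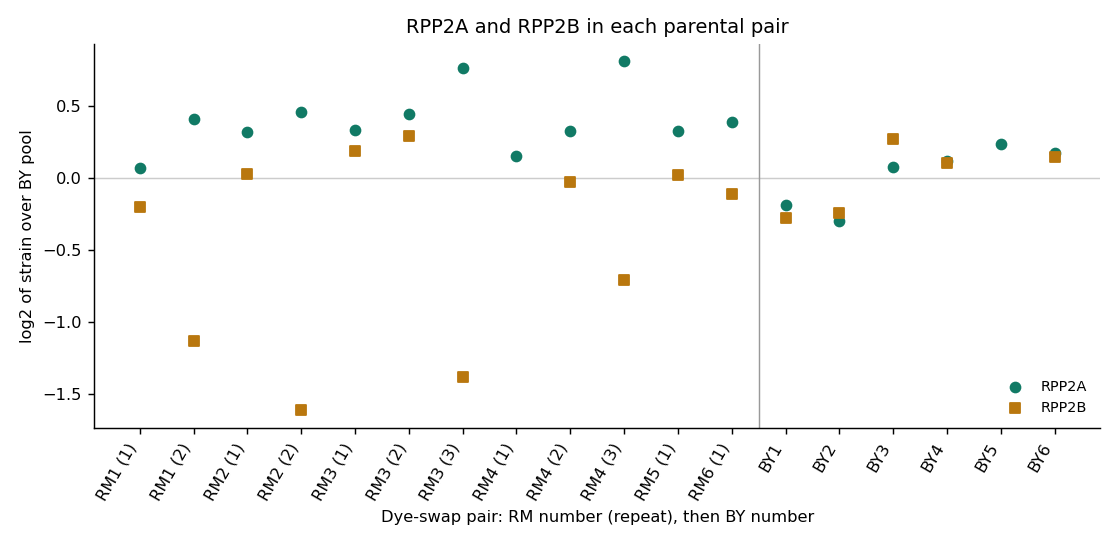
RPP2A (circles) and RPP2B (squares) in each parental dye-swap pair, as log2 of the strain over the BY pool, with RM pairs left of the line and BY pairs right of it. RM labels give the replicate number with the repeat in brackets. RPP2B is at -0.71 or lower in the last repeats of RM numbers 1 to 4 and between -0.20 and 0.30 in the other RM pairs.

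The 4 pairs differed from the other 8 by 1.23 log2 units for RPP2B in absolute value, against a median of 0.15 over members, and the next largest was 0.46. Over the 3986 probes tested the median was 0.08, and 9 probes differed by more than RPP2B. In segregants RPP2B ran from -0.87 to 0.72 with a median of 0.19. Its mean lay 0.34 above the parental midpoint (SE 0.0870, limma adjusted p = 0.0169), and it was the 1 member of 129 called at the midpoint, with 62 of 3986 probes, or 1.56%, called on the array, 1.03% above the midpoint. With first repeats of RM the excess was 0.17 (adjusted p = 0.573) and 0 members were called. The call was also lost without BY replicate 1 (0.31), BY replicate 2 (0.31), RM replicate 1 (0.31) or RM replicate 2 (0.30).

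The 3 genes that encode a ribosomal protein fused to ubiquitin, RPS31, RPL40A and RPL40B, did not pass against all BY replicates. RPS31 differed by -0.14 (limma adjusted p = 0.280), RPL40A by -0.05 (adjusted p = 0.681) and RPL40B by -0.12 (adjusted p = 0.117). All 3 were lower against BY 3 to 6, by -0.29, -0.18 and -0.19, where 31.2% of all probes were lower. RPL40B was the 1 of the 3 that passed with the replicate block (adjusted p = 0.0436), where 21.0% of all probes were lower.

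The second comparison took the copies of 1 protein against each other, as the A copy minus the B copy within each strain, which cancels whatever both copies share. Of 58 pairs 57 could be tested between RM and BY with a two-sided exact permutation test, whose smallest p for 6 against 6 values is 0.00216. The p-values are not adjusted. There were 14 pairs, or 24.6%, with an unadjusted p under 0.05, and in 7, or 12.3%, the RM and BY values did not overlap. These 7 were RPP2, RPL16, RPL22, RPL9, RPS14, RPS22 and RPS29. The median absolute difference over tested pairs was 0.05. The count of pairs was 13 of 53 against BY 3 to 6 and 10 of 49 against BY 1 and 2. As these p-values are unadjusted, the counts cannot be set beside those of single members, which passed an adjusted p. No count over other pairs of probes is given for comparison. In a paired sign-flip test by replicate number 8 pairs passed, and there a pair with fewer than 6 complete numbers could not reach 0.05.

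The RPP2 pair differed by 0.77. RM values ran from 0.30 to 1.18 with a median of 0.80, against BY values from -0.20 to 0.09 with a median of 0.01 (RM mean 0.75 ± 0.309 SD, n = 6, BY mean -0.02 ± 0.109 SD, n = 5, exact permutation p = 0.00433). Over first repeats of RM the difference was 0.33 (exact p = 0.00794), and in the paired test it was 0.86 (exact p = 0.0625). The segregants' mean was 0.09 ± 0.167 SD, with 1 segregant lacking a value, and 3, or 2.68% (95% exact interval 0.556% to 7.63%), were nearer the RM mean than the BY mean. This share depends on the RM repeat: with the RM mean over first repeats, 0.30, it was 40 segregants, or 35.7% (26.9% to 45.3%).

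The RPL16 pair differed by -0.41, with RM values from -0.50 to -0.28 and a median of -0.36, against BY values from -0.26 to 0.21 and a median of 0.17 (exact permutation p = 0.00216, n = 6 and 5). By their means the copies differed in opposite directions, as RPL16A averaged -0.25 in RM and 0.08 in BY, and RPL16B 0.12 in RM and 0.01 in BY. RPL16B was not tested between the parents, and its RM values (0.05 to 0.23) overlapped its BY values (-0.11 to 0.09). Against BY 1 and 2 alone it was -0.20 (exact p = 0.0714), and in the paired test -0.43 (exact p = 0.0625). Over segregants RPL16A ran from -1.30 to 0.68, and RPL16B had a value in 79.

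The RPL22 pair differed by -0.31, with RM values from -0.41 to -0.17 and a median of -0.33, against BY values from -0.13 to 0.16 and a median of -0.01 (exact permutation p = 0.00216, n = 6 each). RPL22A averaged -0.14 ± 0.146 SD in RM and 0.00 ± 0.234 SD in BY, and RPL22B 0.16 ± 0.114 SD in RM and -0.01 ± 0.153 SD in BY. So the copies lay on opposite sides of 0 in RM. The difference was -0.37 against BY 3 to 6 (exact p = 0.00476) and -0.28 after quantile normalization (exact p = 0.0606).

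The segregants spread beyond both parents in RPL22. Their A minus B values ran from -1.24 in 9-6-d to 0.42 in 15-2-d, with a median of -0.15 and an SD of 0.287, with 2 segregants lacking a value, and 27 lay outside the span of the RM and BY replicates. The Cy5 and Cy3 arrays of a segregant correlated at 0.70 for this pair, the highest of the 58 pairs, whose median was 0.03. Nearer the RM mean than the BY mean were 55 segregants, or 49.5% (95% exact interval 39.9% to 59.2%). RPL22B carried most of this. After subtraction of the mean over members its SD was 0.254, against a median of 0.132 over members, and the correlation between its Cy5 and Cy3 values was 0.742. For RPL22A these were 0.139 and -0.14.

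The RPL9 and RPS22 pairs differed in the same direction. RPL9 differed by -0.23, with RM values from -0.31 to -0.13 and a median of -0.23, against BY values from -0.06 to 0.07 and a median of 0.01 (exact permutation p = 0.00216, n = 6 each). RPL9 passed under every alternative run. Among segregants 60, or 53.1% (95% exact interval 43.5% to 62.5%), were nearer the RM mean. RPS22 differed by -0.22, with RM values from -0.20 to 0.00 and a median of -0.11, against BY values from 0.00 to 0.32 and a median of 0.13 (exact permutation p = 0.00216, n = 6 each). The difference was -0.05 with an exact p of 0.530 when the sign of BY 1 and 2 was turned. Segregants ran from -0.70 to 0.82 in this pair (SD 0.291, 1 value missing). Outside the parental span lay 48, again with no share over other pairs, and 76, or 67.9% (58.4% to 76.4%), were nearer the RM mean.

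The other 5 pairs with the largest differences were smaller and less steady. RPL2 differed by 0.19 (exact permutation p = 0.00649, n = 6 and 5), RPL36 by 0.15 (exact p = 0.0108) and RPS29 by 0.14 (exact p = 0.0119, with 3 BY values). RPS7 differed by -0.19 (exact p = 0.0325), and it lost that call when any of BY replicates 2, 3, 4 or 6 or RM replicates 4, 5 or 6 was left out. RPL34 differed by -0.16 (exact p = 0.0833, with 3 BY values), which did not pass.

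**Figure D4:**
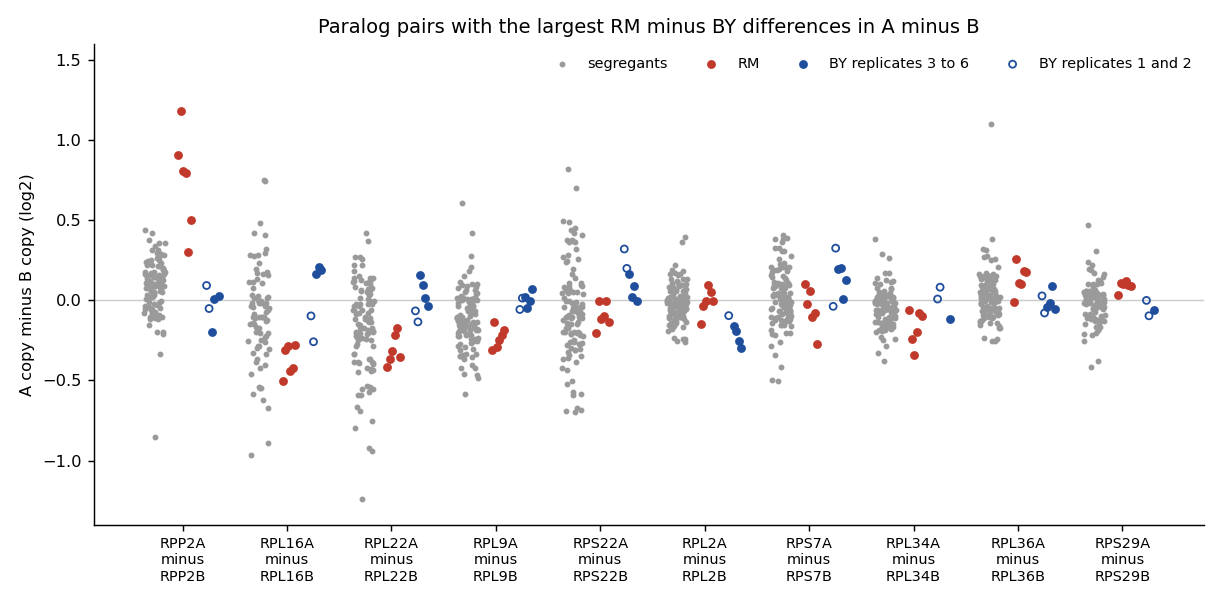
A copy minus B copy, in log2 units, for the 10 pairs with the largest RM minus BY difference. Each pair shows the segregants, then the RM replicates, then the BY replicates, with BY 1 and 2 as open circles. RM and BY do not overlap in RPP2, RPL16, RPL22, RPL9, RPS22 and RPS29. The gap is narrow in RPS22 (highest RM value -0.0029, lowest BY value -0.0018) and in RPL16 (-0.28 and -0.26). The RPP2 values of RM include the late repeats of numbers 1 to 4.

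Over segregants most copies of a protein moved together. The correlation of the A with the B copy had a median of 0.894 over 58 pairs, against 0.820 for any 2 members, was lowest for RPL31 at 0.254, and was over 0.8 in 51 pairs. Of the 116 paired members 32 correlated more with their own paralog than with any other member. The SD of A minus B had a median of 0.142, close to the median array error of 0.134, and the Cy5 and Cy3 values of A minus B correlated at a median of 0.03. For the typical pair the arrays thus did not resolve a difference between copies among segregants.

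The 6 pairs with the largest spread of A minus B were RPL31 (SD 0.354), RPL16 (0.312), RPS22 (0.291), RPL22 (0.287), RPS21 (0.264) and RPS16 (0.221). They were also the 6 with the lowest correlation between copies, at 0.25, 0.39, 0.68, 0.58, 0.62 and 0.60. Both copies of RPL31, a large-subunit protein near the tunnel exit, were measured in 51 segregants, and its RM minus BY difference of -0.12 did not pass (exact permutation p = 0.158, n = 6 and 5). RPS21 differed by -0.11 (exact p = 0.273, n = 6 and 5) and RPS16 by 0.03 (exact p = 0.533, n = 6 and 4). Wide spread among segregants and a difference between parents thus met in RPL16, RPS22 and RPL22.

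Beyond the common movement, some members varied in a way that both arrays of a segregant showed. After subtraction of the mean over members, the correlation between Cy5 and Cy3 values had a median of 0.169 over 130 members. It was 0.742 for RPL22B, 0.629 for RPP2A, 0.609 for RPP0, 0.586 for RPS22B, 0.542 for RPL16A and 0.505 for RPP1B. RPP0, the stalk anchor, ran from -0.71 to 0.99 over segregants with a median of 0.27. Its median was above the median of the mean over members, 0.11, as were those of RPP2A at 0.31, RPP1A at 0.33, RPP1B at 0.27 and RPP2B at 0.19. The share of all members with a median above 0.11 is not given here, so these values do not set the stalk apart.

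In 8 segregants the members of 1 or 2 chromosomes stood above the rest, together with the other genes of that chromosome. These segregants were found after the data were seen, as those in which the median of a chromosome's other probes lay at least 0.25 above the segregants' median. Values here are relative to each probe's median over segregants and, for members, to the segregant's median over members. This gave 9 of 1695 combinations of segregant and chromosome, and in the others the medians lay between -0.14 and 0.13.

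Chromosome II carries 10 members measured widely enough, and 5 segregants were high there. In 13-2-c the median was 0.78 for members and 0.82 for the other 341 probes of the chromosome, and in 8-1-a it was 0.69 for members and 0.75 for the others. In 10-1-c members stood at 0.58 and the others at 0.66, in 15-5-b members at 0.59 and the others at 0.64, and in 22-2-d members at 0.39 and the others at 0.45. RPL32 lies on this chromosome and read 0.92, 1.07, 0.66, 0.87 and 0.55 in those 5 segregants. Its SD over segregants was 0.386, and 0.344 without the 8 segregants, which takes it below RPS24B at 0.383, RPL9A at 0.381 and RPS9B at 0.353.

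In 14-6-d chromosomes IV and IX were both high, with medians of 0.64 and 0.63 for 18 and 5 members, against 0.70 for the other probes of each. RPP2B, on chromosome IV, read 0.66 in this segregant and RPP2A, on chromosome XV, -0.30, so 14-6-d had the lowest RPP2 A minus B value, -0.85. Without the 8 segregants the SD of RPP2 A minus B was 0.144. In 9-4-d chromosome XIII was high, at 0.75 for members and 0.78 for the others, and this segregant had the highest RPL36 value, 1.10, with RPL36A on chromosome XIII. In 20-2-d chromosome XIV stood at 0.16 for members and 0.29 for the others.

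Of the 86 member values on these chromosomes 84 were above 0. The exceptions were RPS9B in 22-2-d at -0.33 and RPS3 in 20-2-d at -0.03. For 59 of the values the paralog lay on another chromosome that was not high, and there the median was 0.52 for the members and 0.31 for their paralogs. The paralogs were above 0 in 53 of 59 and below their partner in 45. DNA copy number was not measured, and whether the paralog's signal reflects its own transcript or cross-hybridisation was not tested.

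**Figure D5:**
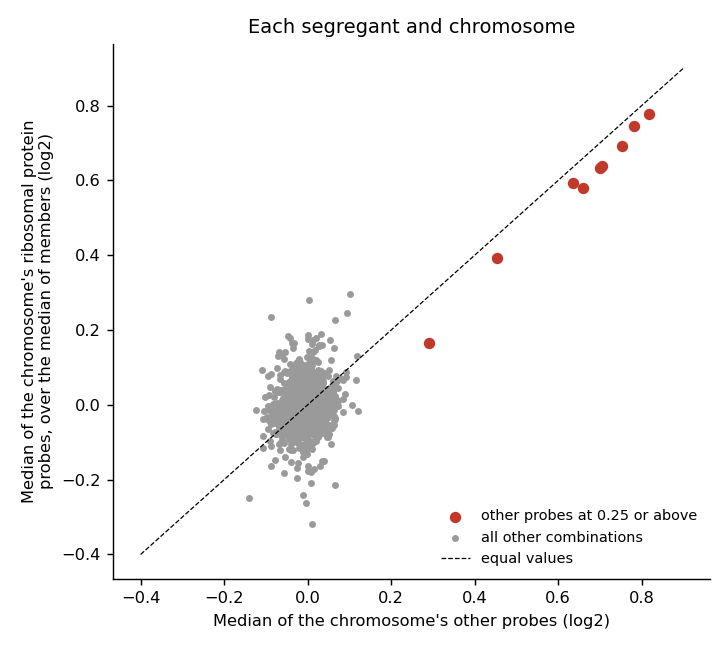
Median of the ribosomal protein probes of a chromosome (vertical) against the median of its other probes (horizontal), in log2 units, for each segregant and each chromosome with at least 3 measured members. Red points are combinations with other probes at 0.25 or above, and the dashed line marks equal values. The red points lie slightly under the line, between 0.16 and 0.78 for members and between 0.29 and 0.82 for the others.

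Other genes of the translation apparatus were read beside the members, from lists drawn up by function. Over the segregants the mean of 9 genes for ribosome-associated factors correlated with the mean over members at 0.914 (Spearman 0.867), that of 28 translation factors at 0.906 (0.870) and that of 50 ribosome biogenesis genes at 0.807 (0.788). For 11 dedicated chaperones of ribosomal proteins it was 0.743 (0.717), for 13 regulators of ribosomal protein genes 0.306 (0.236), for 39 mitochondrial ribosomal proteins 0.182 (0.092) and for 20 stress-response genes -0.51 (-0.61). All of these means come from the same arrays as the members. Leaving out the 2 most distant segregants moved none of them by over 0.1.

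Of 4967 other genes, the 6 most like the mean over members were SNU13 at 0.906, SPR2 at 0.903, CDC33 at 0.900, TMA19 at 0.893, EGD2 at 0.893 and STM1 at 0.875, as Pearson correlations, each over at least 92 segregants. SNU13 encodes a component of small nucleolar and spliceosomal particles, CDC33 the cap-binding translation factor, EGD2 a subunit of the nascent polypeptide complex and STM1 a ribosome-bound protein. The 6 at the other end were URA10 at -0.83, RIM101 at -0.80, MYO3 at -0.79, LAM5 at -0.78, GDH2 at -0.77 and AZF1 at -0.77. In these values gene and members share arrays. With the gene on Cy5 and the members on Cy3 arrays, the first 6 ran from 0.645 (EGD2) to 0.786 (STM1). The last 6 then ran from -0.755 (URA10) to -0.550 (AZF1). URA10 encodes a minor orotate phosphoribosyltransferase, RIM101 a transcriptional repressor that acts in the response to alkaline pH and GDH2 a glutamate dehydrogenase.

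Between the parents the lists differed in their counts, where 33.3% of all probes were higher in RM and 20.9% lower, and where 36.2% and 31.2% were against BY 3 to 6. Of 44 ribosome biogenesis genes tested 1 was higher in RM and 8 were lower (median -0.08), and of 10 chaperones 1 was higher and 3 lower, with a median of -0.14. Against BY 3 to 6, 0 of 34 biogenesis genes were higher and 27 lower (median -0.28), and 0 of 7 chaperones were higher and 6 lower (median -0.39). Against BY 1 and 2 the medians were 0.21 and 0.08, with 22 of 42 biogenesis genes higher and 0 lower. DBP2, an RNA helicase, differed by -0.47 and ACL4, the chaperone of Rpl4, by -0.63 (limma adjusted p = 0.00490 and 8.09e-04). Of mitochondrial ribosomal proteins 30 of 35 were higher in RM and 2 lower (median 0.38), and 25 of 27 and 2 against BY 3 to 6 (median 0.44), for example MRPL38 at 0.80 (adjusted p = 2.28e-07).

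Of 10 regulators tested 6 were higher in RM and 2 lower, and against BY 3 to 6 it was 4 and 2 of 6. DOT6, a repressor of ribosome biogenesis genes, averaged 0.63 in RM and -0.18 in BY, a difference of 0.81 (SE 0.0969, limma adjusted p = 1.36e-05). HMO1, a high-mobility-group protein at ribosomal protein promoters, differed by 0.53 (adjusted p = 1.20e-04), SFP1 by 0.21 (adjusted p = 0.00163) and FHL1 by -0.26 (adjusted p = 6.41e-04). Of 25 translation factors 2 were higher, ANB1 by 1.27 and HYP2 by 1.10, the copies of the gene for the elongation factor eIF5A, and 3 were lower, among them TEF4 by -0.32. Against BY 3 to 6, 3 of 25 were higher and 10 lower. Of 8 ribosome-associated factors 0 were higher and 2 lower, SSB2, a ribosome-bound Hsp70, by -0.40 and SSZ1 by -0.20, and against BY 3 to 6, 0 were higher and 5 lower. Of 17 stress-response genes 9 were higher and 2 lower (10 and 2 of 15 against BY 3 to 6), with HSP12 at 2.17 and HSP26 at -2.57.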

How the data were processed

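Total RNA of 6 BY pairs, 12 RM pairs and 113 segregants was measured on 262 two-colour arrays. The deposited values are log ratios of the pool over the strain or the reverse, with the base unstated and taken as log2 from their range. Each array deposited by the authors has a mean of 0 and a median between -0.07 and 0.10, so the authors' log2 values were centred before deposit. The sources used here do not give the background correction, the filters or the scanner software. Arrays measured between 3597 and 6581 probes, and the number of arrays limits the precision.

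The sign was turned, both dyes were averaged, and repeats of an RM number were averaged to 1 replicate. Gene names came from the platform annotation (5645 of 7085 probes with 1 symbol, 1440 with none or several), and all 135 members matched the reference table, whose assembly is R64. Members, lists and tests were chosen with earlier results of these data known. RM against BY and segregants against the parental midpoint were tested with limma 3.58.1 in R 4.3.3 over all probes measured in 80% or more of the segregants and in 3 or more replicates of each parent, and p-values were adjusted by Benjamini-Hochberg. Modes were fitted with mclust 6.1.1. Paralog differences were tested with exact permutation tests written in Python 3.11.15 with numpy 2.4.6, and scipy 1.17.1 served for Spearman correlations. The scripts were tested on simulated data.

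The genes named are the members called between the parents or at the midpoint, the paralog pairs with the 10 largest differences and the 6 largest segregant SDs, the 6 most and 4 least variable members, the stalk proteins and the ubiquitin fusions. Beyond members they are the 6 genes most and the 6 least like the mean over members, and up to 4 genes of each list with the lowest adjusted p. Others (RPL10, RPS3, RPL22B, RPS22B, the members called at 10% and genes given as examples of a count) were chosen after their values were seen.

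RM and BY share replicate numbers in their titles. Deviations from the group means correlated between same-numbered samples at 0.510, 0.115, 0.319, 0.130, 0.297 and 0.171 for numbers 1 to 6, and 5 of 12 samples correlated best with their own number. The main tests did not pair the samples. The numbers served as pairs only in the alternative with the replicate number as a block and in the paired sign-flip test. No sequence is printed, since none was given for these genes.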

Additional observations from a re-analysis of the deposited data

Results flagged for a closer look

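Dixon's test at 95% was run on groups of 4 to 6 replicate values of named members, pairs and means. Of 78 groups looked at, 7 had a lowest value that stood off, which chance gives in about 1 in 20 groups tested. The 78 include the BY values of RPL34 and RPS29 A minus B, 3 each, too few for the test. In RM replicate 1 the lowest values were -0.0613 for RPL32, -0.19 for RPS0B, -0.12 for RPS24B, -0.28 for RPS9B and 0.0320 for RPS29 A minus B. RM replicate 1 also had the lowest mean over members, -0.14. The RM mean of large minus small was lowest at -0.0078, in RM replicate 4. In BY, RPL40B was lowest at -0.0933, in BY replicate 1.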

How the results depend on the processing

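Of the count of members called between RM and BY, 9, some alternatives moved it by over 1.5 times. It was 3 with Cy3 arrays alone (2476 of 5233 probes passed) and 14 with arrays centred on the median (2153 of 3986). Against BY replicates 3 to 6 it was 86 (1898 of 2816), and against BY 1 and 2 it was 67 (2199 of 4069). With the sign of BY 1 and 2 turned it was 81 (2664 of 3986), and with the replicate block 18 (2146 of 3986). A fit that also held the segregants gave 0, where 605 of 3986 probes passed. Some settings were chosen after seeing the data, and among these first repeats of RM gave 5 (1979 of 3983 probes). First repeats with BY 3 to 6, likewise chosen, gave 38 (1650 of 2816). BY 3 to 6 with RM 2 to 6, also chosen then, gave 84 (1914 of 2816). Leaving out 1 replicate gave 5 to 19. The median difference, -0.06, was 0.22 against BY 1 and 2, where RPL25 and RPL36B reversed to 0.0295 and 0.0296, and the mean over members moved to -0.21 for RM minus BY after quantile normalization. The count at the midpoint, 1, was 0 with Cy3 arrays, BY 3 to 6, BY 1 and 2 turned, first repeats, first repeats with BY 3 to 6, or BY 3 to 6 with RM 2 to 6, and 3 after quantile normalization. Without 1 replicate it was 0 to 1. The count with 2 modes, 0, was 8 with 10% in each. The count of paralog pairs, 14, was 8 with the replicate block, where missing numbers lower the power, and 12 to 16 without 1 replicate. The share of segregants nearer RM in RPP2, 2.68%, was 35.7% with first repeats of RM, also chosen after seeing the data. The SD of the mean over segregants ranged from 0.253 to 0.311. The cause of the other changes was not tested. Missing values left 6 members untested.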
